A study of Mus musculus with 6 samples.

Results

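The 10 synaptotagmin genes Syt1, Syt2, Syt3, Syt4, Syt5, Syt7, Syt11, Syt13, Syt16 and Syt17 were taken by gene name from the deposited gene table. They were 10 of 13348 listed genes, and their 24 listed transcripts were taken from the 24676 in the transcript table. Synaptotagmins are calcium sensors of membrane fusion and their relatives, and Syt13, Syt16 and Syt17 are known as members that do not bind calcium through their C2 domains. The mice were C57BL/6 animals 12 weeks old, and RNA was taken from their orbitofrontal cortex. The knockdown group, 3 libraries, had a lentivirus injected there that carried a short hairpin RNA (shRNA) against the splice junction of circHomer1a, a circular RNA of the Homer1 gene. The control group, 3 libraries, received a scrambled shRNA according to the series title, and the labels give neither its vector nor the time between injection and dissection. The tissue was dissected whole, so cells that took up no virus were included in unknown number. Whether each library had its own animal is not in the labels, and the p-values therefore speak to the spread among these libraries alone, which may be technical.

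Synaptotagmins are membrane-trafficking proteins that carry a pair of C2 domains, folds that bind phospholipids and, in some members, calcium. At synapses, calcium entering a nerve terminal binds the sensor on the vesicle, and the sensor acts with the SNARE proteins (syntaxin, SNAP-25 and synaptobrevin) to trigger fusion. Members differ in calcium affinity and kinetics, so fast, slow and dense-core vesicle release use different ones, and several relatives do not bind calcium at all.

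Levels are given in FPKM, fragments scaled for the length of the feature and the size of the library. Read depth was unknown, and precision was taken from the replicates. Groups were compared with limma on log2(FPKM + 1), knockdown minus control, fitted over all 11961 genes with a mean of at least 1 FPKM. P-values were adjusted over all of them by the Benjamini-Hochberg method, with a threshold of 0.05. All 10 genes passed this minimum. The scale understates the change of low genes. The comparison asks which genes differ when circHomer1a is targeted, but the circular RNA itself was not analysed here, so the knockdown was not checked.

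The dissected tissue carried cortical neuron markers. All 10 excitatory neuron markers were listed, with summed levels of 1401 to 2196 FPKM for control against 1276 to 1645 FPKM for knockdown libraries. All 8 striatal markers were listed too, and their sum ranged from 392 FPKM in control 3 to 1463 FPKM in control 2, against 629 to 854 FPKM for knockdown libraries. Myelin and oligodendrocyte markers (10 of 10 listed) summed to 1201 to 1534 FPKM for control against 1427 to 1926 FPKM for knockdown libraries, and all 10 fold changes were above 0 (0 called). Erythrocyte markers (5 of 5 listed) were highest in control 2, at 1665 FPKM, against 320 to 598 FPKM in the other 5 libraries. Whether this composition had a part in the values below was not tested. In tissue of mixed cells, fewer cells of a type and less RNA per cell cannot be told apart.

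No synaptotagmin gene passed the threshold. limma called 0 of the 10 genes at adjusted p under 0.05, against 0.0% of all genes tested, and 0 of the 10 had an unadjusted p under 0.05, against 3.57% of all genes. The adjusted p of the 10 genes lay between 0.948 and 0.994. Their fold changes were above 0 in 7 genes, against 55.7% of all genes, and Syt3, one of the 7, was just below 0 with median-of-ratios scaling (-0.01). The median log2 fold change of the 10 was 0.11, against 0.02 over all genes tested, and the median absolute value was 0.15 against 0.10. The 95% intervals reached 0.37 to either side of the fold change in the median of the 10 genes, against 0.29 over all genes tested. The 10 genes together summed to 421 ± 34.8 FPKM (control) against 437 ± 33.8 FPKM (knockdown; SD, n = 3 each), and the groups overlapped.

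**Figure D1:**
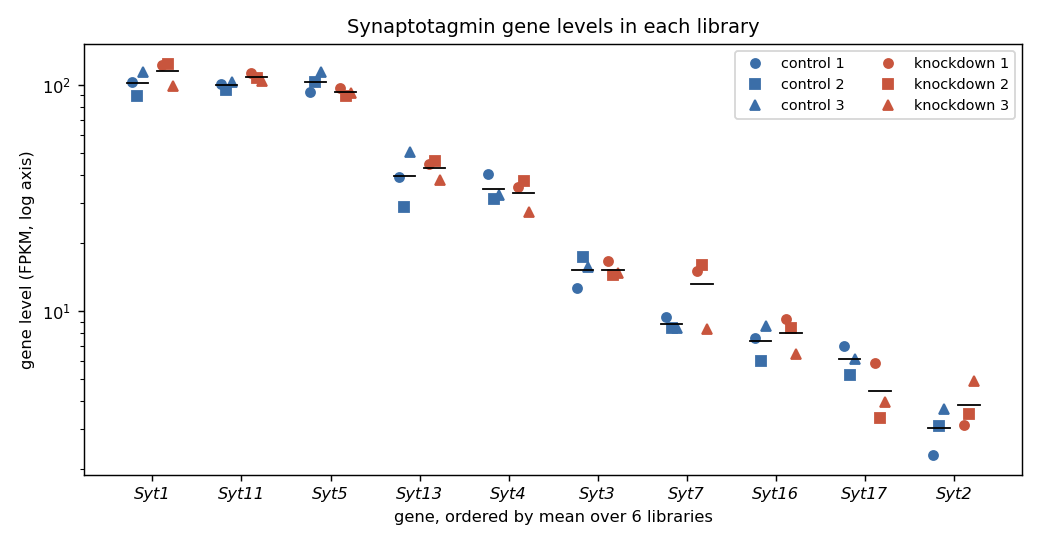
Level of each synaptotagmin gene in FPKM (vertical log axis), with 3 control libraries in blue, 3 knockdown libraries in red, a symbol per replicate number and a black bar at each group mean. Syt1, Syt11 and Syt5 lay near 100 FPKM in every library, Syt2 lay below 5 FPKM, and the groups overlapped in 9 of the 10 genes.

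Across genes, the levels spanned from 3.45 FPKM for Syt2 to 109 FPKM for Syt1 (means over 6 libraries). Syt1, Syt11 and Syt5 formed the top of the order, at 109, 104 and 98.2 FPKM, and held 71.3% to 74.2% of the summed level of the 10 genes in each library. Their order was not fixed, because Syt1 exceeded Syt11 in 4 of 6 libraries and Syt11 exceeded Syt5 in 4 of 6. Syt13 followed at 41.2 FPKM and Syt4 at 34.1 FPKM, again with overlapping ranges. Syt3 at 15.3 FPKM, Syt7 at 11.0 FPKM, Syt16 at 7.72 FPKM and Syt17 at 5.27 FPKM each overlapped the next. Gaps without overlap lay between Syt5 and Syt13 and between Syt4 and Syt3, where the higher gene led in 6 of 6 libraries.

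The order at the top depended on the gene model. A gene FPKM is a level per base of all annotated exons, and the union of Syt1 exons in GENCODE M21 (mouse assembly GRCm38) is 8338 bases, while its main transcript Syt1-201 has 4745. By main transcript, Syt1-201 stood at 182 FPKM over the 6 libraries, above Syt5-201 at 127 FPKM and Syt11-201 at 118 FPKM. In this measure Syt1-201 ranged from 153 to 215 FPKM and Syt5-201 from 115 to 148 FPKM, so these ranges did not touch, while those of Syt5-201 and Syt11-201 (108 to 128 FPKM) overlapped.

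Syt1 encodes the main calcium sensor of fast, synchronous release in forebrain neurons (chromosome 10, 108497650 to 109010982, minus strand). Its level was 103, 89.7 and 115 FPKM for control 1, 2 and 3, against 123, 124 and 98.8 FPKM for knockdown 1, 2 and 3. Knockdown 1 and 2 were above every control, while knockdown 3 lay inside the control range. Its log2 fold change came to 0.17 (95% interval -0.14 to 0.48, adjusted p = 0.948 in limma, and p = 0.3 in the two-sided exact permutation test). With any 1 library left out it lay between 0.08 and 0.28.

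Syt1 had 2 listed transcripts that encode the same 421 codons and share 4738 bases. Syt1-202 has an additional exon of 80 bases in the 5' untranslated part. Syt1-201 held 90.5% to 99.9% of the listed transcript level in each library. Syt1-202 had 0.186, 0.170 and 9.43 FPKM for control 1, 2 and 3, against 3.20, 0.250 and 16.2 FPKM for knockdown 1, 2 and 3. Its higher libraries were thus control 3 and knockdown 3, one in each group. Transcripts that share this much sequence are assigned few distinguishing fragments, so such splits are uncertain.

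Syt2, the fast release sensor of fast-spiking interneurons and of many hindbrain synapses, was the lowest of the set (chromosome 1, 134646677 to 134762593, plus strand). Its level was 2.31, 3.11 and 3.69 FPKM for control 1, 2 and 3, against 3.14, 3.50 and 4.93 FPKM for knockdown 1, 2 and 3. Knockdown 3 was the highest library and control 1 the lowest, and the other 4 were mixed. Knockdown minus control, the log2 difference was 0.26 (95% interval -0.17 to 0.69, adjusted p = 0.948 in limma, and p = 0.4 in the two-sided exact permutation test). All 8 markers of fast-spiking interneurons were listed, and they summed to 264 to 339 FPKM for control against 273 to 387 FPKM for knockdown libraries. Of this sum, Cplx1 alone held 158 to 204 FPKM in control and 179 to 232 FPKM in knockdown libraries. Fold changes were above 0 in 6 of the 8, against 55.7% of all genes (0 called), and Cox6a2 was below 0 (-0.28). Interneuron markers in general (10 of 10 listed) summed to 918 to 1046 FPKM for control against 784 to 951 FPKM for knockdown libraries. Among these, 2 of 10 were above 0 (0 called). Pvalb, the parvalbumin gene of fast-spiking interneurons, had 39.8, 32.2 and 79.9 FPKM for control 1, 2 and 3, against 37.5, 76.5 and 70.9 FPKM for knockdown 1, 2 and 3. The part of these cells in the Syt2 values was not tested. The 1 listed transcript, Syt2-201, lay between 2.56 and 5.48 FPKM, with overlapping groups.

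Syt5, a calcium-binding relative of Syt1, was the only 1 of the 3 abundant genes with a negative fold change (chromosome 7, 4539765 to 4547541, minus strand). Its level was 93.1, 103 and 114 FPKM for control 1, 2 and 3, against 96.6, 89.6 and 92.3 FPKM for knockdown 1, 2 and 3. The knockdown libraries lay close together and control 1 lay among them. limma put the log2 fold change at -0.15 (95% interval -0.39 to 0.08, adjusted p = 0.948, and p = 0.2 in the two-sided exact permutation test). Without control 1 it was -0.23 and without control 3 it was -0.08.

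The full-length Syt5-201 (386 codons) held 75.8% to 85.2% of the Syt5 transcript level. Syt5-202, a short model of 397 bases, was at 26.0 ± 3.47 FPKM (control) against 29.0 ± 6.96 FPKM (knockdown; SD, n = 3 each). Syt5-203, of 444 bases, lay between 1.49 and 3.00 FPKM. In all 3 transcripts the groups overlapped. The coding part of both short models is open at its end in the annotation, so they do not describe complete proteins.

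Syt7, a high-affinity sensor with slow kinetics that is known for asynchronous release and synaptic facilitation, had the largest positive fold change of the set (chromosome 19, 10389090 to 10453181, plus strand). Its level was 9.42, 8.40 and 8.44 FPKM for control 1, 2 and 3, against 15.1, 16.1 and 8.36 FPKM for knockdown 1, 2 and 3. Knockdown 1 and 2 were well above every control, and knockdown 3 was the lowest of the 6 libraries. The group means were 8.75 ± 0.577 and 13.2 ± 4.19 FPKM (SD, n = 3 each), so the spread within the knockdown group was about as large as the difference. Its log2 fold change came to 0.49 (95% interval -0.03 to 1.02, limma unadjusted p = 0.0628, adjusted p = 0.948, and p = 0.4 in the two-sided exact permutation test).

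The Syt7 value depended on knockdown 3. Without that library the log2 fold change was 0.77 (95% interval 0.52 to 1.01, limma unadjusted p = 0.000294, adjusted p = 0.293), which did not pass the threshold over all genes. With any other single library left out it lay between 0.33 and 0.54. With 6 libraries and array weights it was 0.62 (limma adjusted p = 0.841), and with the listed transcripts summed it was 0.38 (limma adjusted p = 0.951).

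**Figure D2:**
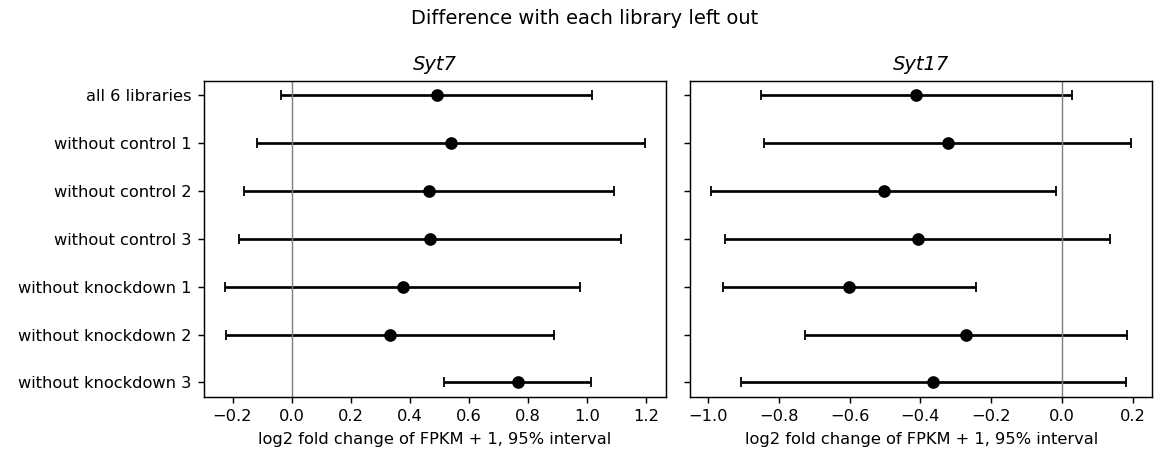
Log2 fold change of Syt7 (left) and Syt17 (right) with its 95% interval from limma (horizontal axis), for all 6 libraries and with each library left out in turn (rows). Syt7 moved from 0.49 to 0.77 without knockdown 3, and Syt17 lay between -0.60 and -0.27.

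Syt7 is spliced in the linker between its membrane anchor and its C2 domains, and the annotated models of 3 of its listed transcripts differ there. Syt7-201 encodes 403 codons, Syt7-204 447 codons and Syt7-202 611 codons. Syt7-204 adds an exon of 132 bases (chr19:10421757-10421888, GRCm38, plus strand) to Syt7-201. Syt7-202 adds that exon, an exon of 369 bases and an exon of 123 bases (chr19:10430338-10430460), which makes 208 more codons than in Syt7-201. The spliced coding sequences at these sites are printed because they are what tells the coding parts of these forms apart. They were read 5′ to 3′ from the GENCODE M21 transcripts, with 1 added exon in capitals (for Syt7-202 the last of its 3) and 18 bases of each neighbouring exon in lower case.
Syt7-201: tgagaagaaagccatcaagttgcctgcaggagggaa
Syt7-204: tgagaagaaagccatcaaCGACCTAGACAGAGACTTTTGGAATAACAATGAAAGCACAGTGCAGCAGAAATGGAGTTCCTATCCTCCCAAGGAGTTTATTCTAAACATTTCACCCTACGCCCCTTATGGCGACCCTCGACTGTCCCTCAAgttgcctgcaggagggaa
Syt7-202: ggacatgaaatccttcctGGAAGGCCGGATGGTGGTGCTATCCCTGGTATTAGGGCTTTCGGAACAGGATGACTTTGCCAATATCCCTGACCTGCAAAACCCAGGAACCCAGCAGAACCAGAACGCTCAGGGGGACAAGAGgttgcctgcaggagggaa

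The long form Syt7-202 carried most of the gene's pattern. Its level was 7.56, 8.66 and 7.79 FPKM for control 1, 2 and 3, against 15.3, 16.4 and 5.02 FPKM for knockdown 1, 2 and 3. As for the gene, knockdown 1 and 2 were above every control and knockdown 3 was the lowest library. The log2 fold change was 0.41 (limma adjusted p = 0.950 over 18476 transcripts) and 0.91 without knockdown 3 (limma adjusted p = 0.163).

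The short form Syt7-201, which lacks all 3 linker exons, had a negative fold change. Control 1, 2 and 3 had 2.64, 1.76 and 4.62 FPKM, against 2.46 and 0.731 FPKM for knockdown 1 and 2, and knockdown 3 listed it at 0. limma put its log2 fold change at -1.08 (95% interval -2.37 to 0.21, adjusted p = 0.950). As a share of the listed Syt7 transcripts it was at 17.9%, 15.3% and 30.4% in control and at 10.9%, 3.54% and 0% in knockdown libraries. These shares did not overlap, and it was the only 1 of 16 tested synaptotagmin transcripts with a share of which this held. Among all 12432 such transcripts, shares did not overlap in 10.2%, with every knockdown library below every control in 5.08% and above in 5.1%, so 1 of 16 is near the background. Of the 1605 bases of Syt7-201, 1264 are also in Syt7-202, so the split between these forms is uncertain.

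Syt7-204, the form with the 132-base exon alone, was listed at 0 for every control library, while knockdown 1, 2 and 3 had 0.785, 0.682 and 2.00 FPKM. Every knockdown library was thus above every control, which held in 4.57% of all tested transcripts. The mean of Syt7-204 was under 1 FPKM, so it was not tested. Forms under this minimum are not in the 4.57%, so no share over all such low forms is given. With no minimum its limma adjusted p was 0.704. Syt7-203 had 1.73, 0 and 0.00231 FPKM for control 1, 2 and 3, against 0, 0.477 and 3.36 FPKM for knockdown 1, 2 and 3. Syt7-207 lay between 1.02 and 3.96 FPKM in all 6. The deposited ends of Syt7-203 and Syt7-207 differ from GENCODE M21, so their exons are not described. Gm26859, a long noncoding RNA gene, overlaps Syt7 on the opposite strand; the kit was stranded, but the strand setting of the counting is not given in the sources used here, so the Syt7 values are uncertain to that extent.

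Shifts of transcripts within Syt7 did not pass a test of usage. diffSplice, which asks whether transcripts of a gene move apart, gave Syt7 an unadjusted p of 0.0518 and an adjusted p of 0.453 over 4091 genes. Of the 6 synaptotagmin genes with 2 or more tested transcripts, it called 0, against 1.15% of all genes. None of the 6 had an unadjusted p under 0.05 with the main settings, against 11.1% of all genes. The other 5 genes had adjusted p between 0.709 (Syt11) and 0.966 (Syt3). Under alternative settings the unadjusted diffSplice p of Syt7 ran from 0.0330 (without knockdown 1) to 0.492 (without control 3).

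Of the 24 listed synaptotagmin transcripts, 20 had a mean of at least 1 FPKM and were tested. limma called 0 of the 20, against 0.103% of all transcripts, and 0 had an unadjusted p under 0.05, against 3.81% of all transcripts. Their median log2 fold change was 0.13 against 0.02 over all transcripts, and their median absolute value 0.17 in both sets. The 4 that were not tested were Syt3-204, Syt3-205, Syt7-203 and Syt7-204.

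Syt3, a high-affinity member found at plasma membranes and linked to AMPA receptor internalisation, had nearly equal group means of 15.2 ± 2.43 and 15.3 ± 1.16 FPKM (SD, n = 3 each; chromosome 7, 44384102 to 44400187, plus strand). Its level was 12.6, 17.4 and 15.7 FPKM for control 1, 2 and 3, against 16.6, 14.4 and 14.8 FPKM for knockdown 1, 2 and 3. All knockdown libraries lay within the control range. Knockdown minus control, the log2 difference was 0.01 (95% interval -0.29 to 0.32, adjusted p = 0.994 in limma, and p = 1 in the two-sided exact permutation test), and its sign turned with the scaling, as stated above.

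The main transcript of Syt3 changed between libraries of the same group. Syt3-202 had 4.15, 19.7 and 17.1 FPKM for control 1, 2 and 3, against 19.5, 14.3 and 3.89 FPKM for knockdown 1, 2 and 3. Syt3-203 had 11.7, 0 and 1.29 FPKM for control 1, 2 and 3, against 0, 1.85 and 13.6 FPKM for knockdown 1, 2 and 3. Control 1 and knockdown 3 thus had Syt3-203 as the main form, with 67.0% and 63.6% of the transcript level, and the other 4 libraries had Syt3-202 with 76.5% to 89.9%. The minor forms Syt3-201, Syt3-204 and Syt3-205 stayed at or under 2.42 FPKM in every library. Syt3-202 and Syt3-203 encode the same 587 codons, and 2091 of the 2096 bases of Syt3-203 are also in Syt3-202. The split leaves the coding sequence as it is and followed libraries, not groups.

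**Figure D3:**
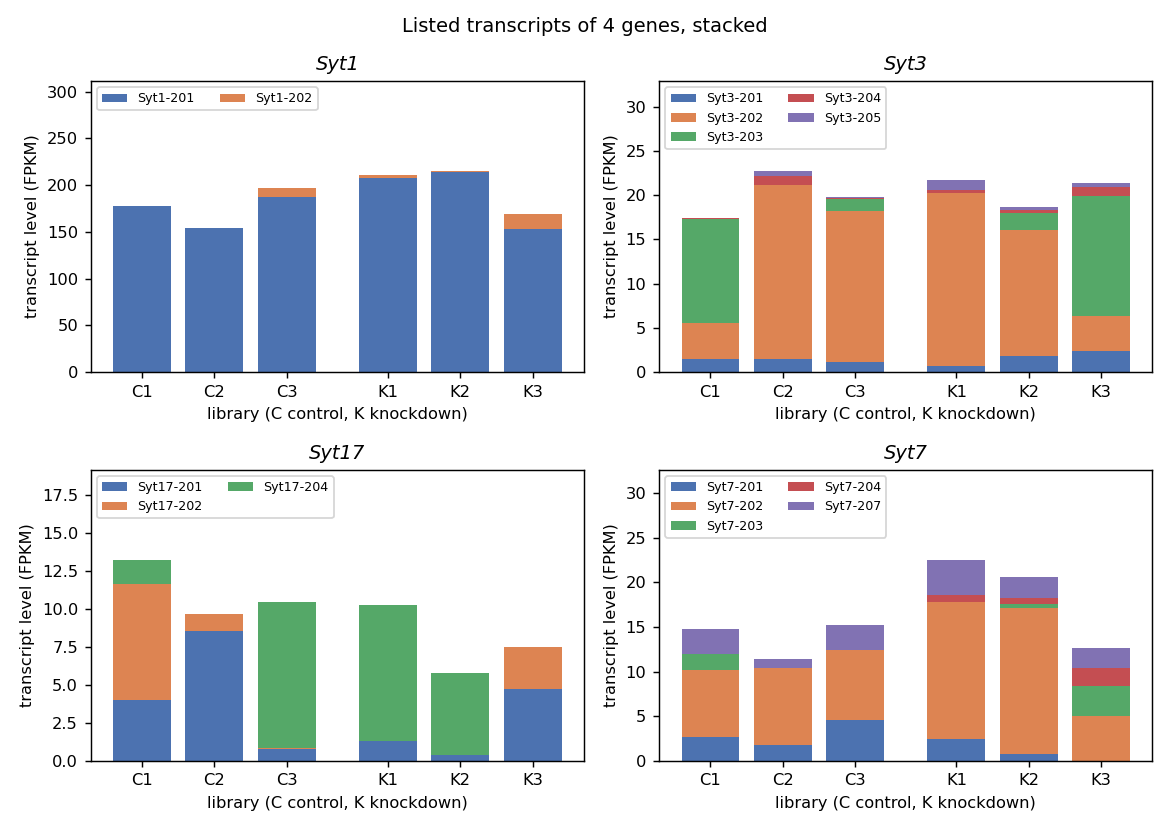
Levels of listed transcripts in FPKM, stacked by library (C control, K knockdown), for Syt1, Syt3, Syt17 and Syt7. Syt3-203 was the main form in C1 and K3, Syt17-204 in C3, K1 and K2, and Syt7-202 was highest in K1 and K2.

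Syt11 and Syt4 are relatives whose first C2 domain carries a change at a calcium-binding position, and both are placed on vesicles of the Golgi, dendrites and axons. Syt11 (chromosome 3, 88744700 to 88775164, minus strand) was the only 1 of the 10 genes whose groups did not overlap, against 7.92% of all genes, so 1 of 10 is near the background. Its level was 100.9, 95.1 and 103 FPKM for control 1, 2 and 3, against 113, 107 and 104 FPKM for knockdown 1, 2 and 3. Every knockdown library was above every control, which held in 4.45% of all genes, and the gap between control 3 and knockdown 3 was under 1 FPKM. limma put the log2 fold change at 0.12 (95% interval -0.08 to 0.31, adjusted p = 0.948). The two-sided exact permutation p was 0.1, the smallest that 3 against 3 libraries can give. The ratio of group means was 1.09, the fold change lay between 0.08 and 0.14 with any 1 library left out, and it was 0.18 with quantile normalization.

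Syt11-201, with the full 430 codons, held 96.9% to 98.0% of the listed Syt11 level and was at 113 ± 4.68 FPKM (control) against 122 ± 5.17 FPKM (knockdown; SD, n = 3 each). It was the only 1 of the 20 tested transcripts whose groups did not overlap, against 8.8% of all tested transcripts (4.57% with every knockdown library above every control and 4.22% below, limma adjusted p = 0.950). Syt11-205, a partial model, had 2.28, 2.29 and 2.73 FPKM for control 1, 2 and 3, against 3.998, 3.92 and 2.48 FPKM for knockdown 1, 2 and 3. Knockdown 1 and 2 were higher there and knockdown 3 lay among the controls (log2 fold change 0.36, limma adjusted p = 0.950). All 1319 bases of Syt11-205 are also in Syt11-201, and only a junction that omits 3 coding bases tells it apart. That junction is printed because the entire Syt11-205 value depends on it, with the 3 bases (chr3:88748779-88748781, GRCm38, minus strand) in capitals.
Syt11-201: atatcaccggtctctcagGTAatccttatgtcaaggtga
Syt11-205: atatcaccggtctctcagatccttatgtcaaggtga

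Syt4, an activity-regulated member found on dense-core and postsynaptic vesicles, lies on chromosome 18 and had 1 listed transcript. Its level was 40.5, 31.4 and 32.6 FPKM for control 1, 2 and 3, against 35.4, 37.6 and 27.4 FPKM for knockdown 1, 2 and 3. The highest library was control 1 and the lowest knockdown 3, with the others mixed. Its log2 fold change came to -0.06 (95% interval -0.41 to 0.29, adjusted p = 0.970 in limma, and p = 0.9 in the two-sided exact permutation test), and it turned positive without control 1 (0.05) or knockdown 3 (0.08).

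**Figure D4:**
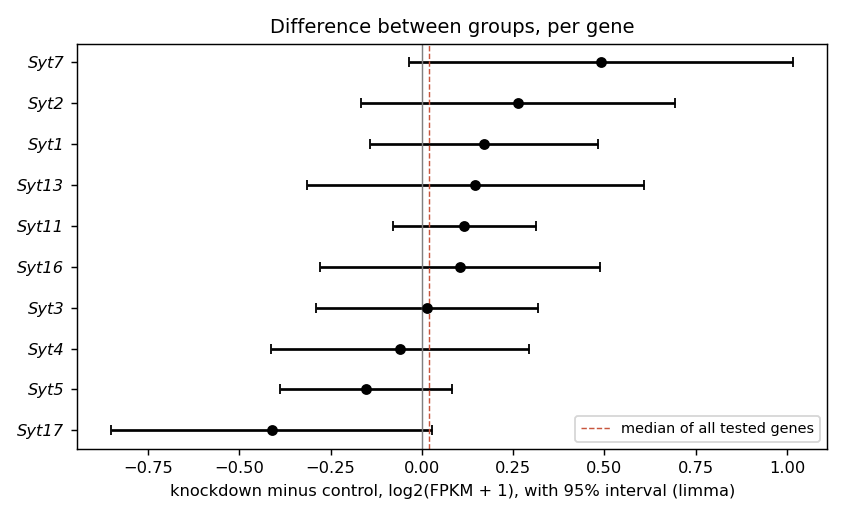
Log2 fold change of FPKM + 1, knockdown minus control, for each synaptotagmin gene (dots) with its 95% interval from limma (bars), and the median of all tested genes as a dashed line. Every interval includes 0, from Syt17 at -0.41 to Syt7 at 0.49.

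Syt13, Syt16 and Syt17 are the members named at the start as not binding calcium through their C2 domains. Syt13 (chromosome 2, 92915098 to 92956058, plus strand) had 39.1, 28.8 and 50.6 FPKM for control 1, 2 and 3, against 44.8, 46.0 and 38.0 FPKM for knockdown 1, 2 and 3. The controls held both the lowest and the highest library, and the 1 listed transcript, Syt13-201, had the same values as the gene. Knockdown minus control, the log2 difference was 0.15 (95% interval -0.31 to 0.61, adjusted p = 0.954 in limma, and p = 0.7 in the two-sided exact permutation test), and it was -0.06 without control 2.

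Syt16, a cytosolic relative with no membrane anchor (chromosome 12, 73997661 to 74273267, plus strand), had 7.64, 6.01 and 8.57 FPKM for control 1, 2 and 3, against 9.20, 8.45 and 6.47 FPKM for knockdown 1, 2 and 3. Control 2 and knockdown 3 were the low libraries. limma put the log2 fold change at 0.10 (95% interval -0.28 to 0.49, adjusted p = 0.956, and p = 0.6 in the two-sided exact permutation test), and it was -0.02 without control 2. Its 1 listed transcript, the protein-coding Syt16-203 of 549 codons, accounted for only 7.46% to 47.5% of the gene value, while listed transcripts accounted for at least 96.4% in each of the 7 other genes that could be compared. Syt16-203 had 0.887, 2.27 and 2.93 FPKM for control 1, 2 and 3, against 1.18, 4.50 and 0.541 FPKM for knockdown 1, 2 and 3. Most of the gene value was thus not accounted for by Syt16-203, and the source of the rest was not tested. The antisense gene Gm29587 overlaps Syt16 on the opposite strand, with the same uncertainty as for Syt7.

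Syt17, also called B/K protein and known from trafficking in axons and dendrites, had the largest negative fold change (chromosome 7, 118380717 to 118448222, minus strand). Its level was 7.01, 5.23 and 6.12 FPKM for control 1, 2 and 3, against 5.92, 3.38 and 3.98 FPKM for knockdown 1, 2 and 3. Knockdown 2 and 3 were below every control, and knockdown 1 lay between control 2 and control 3. Its log2 fold change came to -0.41 (95% interval -0.85 to 0.03, limma unadjusted p = 0.0624, adjusted p = 0.948, and p = 0.2 in the two-sided exact permutation test). Without knockdown 1 it was -0.60 (95% interval -0.96 to -0.24, limma unadjusted p = 0.00600, adjusted p = 0.99998). Without knockdown 2 it was -0.27 (limma unadjusted p = 0.198, adjusted p = 0.9997).

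The Syt17 transcripts also split by library. Syt17-204, whose coding sequence starts further downstream and has 413 codons, had 1.56, 0.0263 and 9.66 FPKM for control 1, 2 and 3, against 8.94, 5.39 and 0.0253 FPKM for knockdown 1, 2 and 3. It held 87.3% to 92.9% of the level in control 3, knockdown 1 and knockdown 2, and at most 11.8% in the others. There, Syt17-201 (470 codons) led in control 2 with 88.4% and in knockdown 3 with 63.4%, and Syt17-202 led in control 1 with 58.1%. In each of the 3 forms the groups overlapped (limma adjusted p between 0.950 and 0.983). Of the 2548 bases of Syt17-202, 2530 are also in Syt17-201, and 2546 of the 2764 bases of Syt17-201 are in Syt17-204. The split among the 3 forms is therefore uncertain. Syt17-201 and Syt17-202 differ at the 5' end, so their first annotated coding bases are shown in capitals, before 18 bases that both share. For Syt17-201 the stretch is spliced (chr7:118442479-118443348, GRCm38, minus strand). For Syt17-202 it is 1 unbroken run of 36 genomic bases (chr7:118442479-118442514), so its capitals directly adjoin the shared bases. The coding part of Syt17-202 is open at its start in the annotation.
Syt17-201: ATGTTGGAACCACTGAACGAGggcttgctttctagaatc
Syt17-202: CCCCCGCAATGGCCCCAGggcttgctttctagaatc

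Several members had a like order of libraries. Over the 6 libraries, Pearson's r of log2(FPKM + 1) was 0.946 for Syt1 with Syt16, 0.890 for Syt13 with Syt16, 0.888 for Syt1 with Syt13, 0.858 for Syt1 with Syt11 and 0.801 for Syt1 with Syt7, the highest values among all pairs of the 10 genes. Control 2 and knockdown 3 were low in Syt1, Syt13 and Syt16. The most negative value was -0.840, for Syt2 with Syt4. These describe 6 libraries that share the scale of each library. Of all tested genes, Zbtb18, Kifap3 and Serpina3n were most like Syt1 (r from 0.992 to 0.994), Raly, Zkscan5 and Stx4a most like Syt2 (0.964 to 0.966), and Dnajb14, Gm2026 and Mrto4 most like Syt7 (0.991 to 0.995). They were the highest of 11961 genes over only 6 libraries.

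None of the tested genes that work with synaptotagmins passed the threshold either. Of 22 other synaptotagmins and C2-domain relatives, 13 were listed and 10 tested, and 0 passed in either direction (8 of 10 above 0, median log2 fold change 0.06). Rph3a, the Rab3 effector rabphilin, was at 81.4 ± 17.99 FPKM (control) against 96.4 ± 6.14 FPKM (knockdown; SD, n = 3 each). Syt12 was at 7.45 ± 0.683 and 8.55 ± 1.18 FPKM. In both genes the groups overlapped. Syt6, another synaptotagmin, ranged from 3.59 FPKM in control 2 to 13.9 FPKM in knockdown 1.

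None of the 15 SNARE core and partner genes passed, with 1 at an unadjusted p under 0.05 (3.57% of all genes), 12 above 0 (55.7% of all genes) and a median of 0.13 (0.02 over all genes). That gene was Cplx3, a complexin of layer 6b and other neurons that binds the SNARE complex. Its level was 6.60, 6.37 and 8.84 FPKM for control 1, 2 and 3, against 12.2, 10.8 and 11.2 FPKM for knockdown 1, 2 and 3. Its groups did not overlap, as in 7.92% of all genes, and the log2 fold change of 0.60 had a limma adjusted p of 0.948. Cplx1, the complexin of fast synapses, was at 185 ± 23.9 and 212 ± 28.6 FPKM (SD, n = 3 each).

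Active zone, priming and presynaptic calcium channel genes had 15 of 16 members tested, with 0 passing, 12 above 0 and a median of 0.10. Pclo, an active zone scaffold, was at 4.63 ± 1.08 and 6.08 ± 1.21 FPKM (SD, n = 3 each). Cacna1e, an R-type calcium channel pore, was at 2.14 FPKM in control 3 and between 8.25 and 11.1 FPKM in the other 5 libraries. Vesicle membrane and retrieval partners had 13 of 14 members tested, with 0 passing, 8 above 0 and a median of 0.04. Synpr, the vesicle protein synaptoporin, was at 10.6 ± 3.48 and 6.69 ± 1.71 FPKM (limma unadjusted p = 0.0471, adjusted p = 0.948). Sv2b, a vesicle protein that binds synaptotagmin, was at 30.4 ± 5.88 and 26.1 ± 2.01 FPKM.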

How the data were processed

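Total RNA libraries were made with a stranded kit, per the labels' protocols. The authors deposited FPKM values for genes and transcripts, per the file headers. Per the submitters' processing notes, HISAT2 and StringTie were used after FastQC and cutadapt, with no versions given. A genome build was not given in the sources used here, but 21 of the 24 synaptotagmin transcripts had the same ends in GENCODE M21, and exons are described for those alone. StringTie divides fragments among overlapping transcripts by estimate, so near-identical forms are uncertain. Depth was unknown, so no count test or counting interval was used.

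Tests used limma 3.58.1 in R 4.3.3 on log2(FPKM + 1), with an intensity trend, a mean of at least 1 FPKM over 6 libraries and Benjamini-Hochberg adjustment. For transcript usage, diffSplice gave 1 Simes p a gene. The level of each synaptotagmin gene and listed transcript also had a two-sided exact permutation test. Partner genes, markers and transcript shares had none. The functions were tested on simulated data with larger changes than those of the synaptotagmin genes, so small changes were not covered. All members and their transcripts were named, with up to 2 genes per partner list by smallest p and the 3 genes most like Syt1, Syt2 and Syt7. Genes singled out beyond this rule (Syt6, Pvalb, Cox6a2) were chosen after their values were seen. Members and lists were chosen with earlier results of these data known. Alternatives covered the pseudocount (0.1), the minimum (none or 5 FPKM), scaling, variance trend, array weights, a replicate block, left-out libraries and genes summed from listed transcripts.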

Additional observations from a re-analysis of the deposited data

How the results depend on the processing

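Under every alternative run, limma called 0 of the 10 synaptotagmin genes and 0 of their tested transcripts, and diffSplice called 0 of their genes. The lowest adjusted p was 0.293 for a gene (Syt7) and 0.163 for a transcript (Syt7-202), both without knockdown 3. Unadjusted p-values under 0.05 did occur under some alternatives. In limma, Syt7 and Syt17 had them with array weights and with the replicate block, 2 of the 10 genes each time. Over all 11961 genes, 583 and 552 had them there. In diffSplice, Syt7 and Syt11 had them without knockdown 3, 2 of 6 genes, against 452 of all 4068 genes. Features with a mean under 5 FPKM had no value at that minimum, among them Syt2, Syt2-201, Syt7-201, Syt11-205, Syt17-201 and Syt17-202, and Syt17-202 had none without control 1. Of the 10 genes, 6 kept the sign of their fold change in every setting that gave them a value, and of the 20 tested transcripts 9 did. With all libraries, signs turned for Syt16 with listed transcripts summed (-0.13), Syt3 with median-of-ratios factors (-0.012), and with array weights for Syt16-203 (0.15), Syt3-202 (0.16) and Syt3-203 (-0.24).

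With 1 library left out, ranges that crossed 0 were Syt13 and Syt13-201 (-0.056 to 0.34), Syt16 (-0.021 to 0.24), Syt3 (-0.11 to 0.11), Syt4 and Syt4-201 (-0.15 to 0.075), Syt1-202 (-0.089 to 1.93), Syt16-203 (-0.66 to 0.26), Syt17-204 (-0.38 to 1.39), Syt3-201 (-0.086 to 0.40), Syt3-202 (-0.75 to 0.51), Syt3-203 (-0.87 to 1.20), Syt5-202 (-0.042 to 0.28), Syt5-203 (-0.32 to 0.024) and Syt7-207 (-0.0048 to 0.45). The cause of these turns was not tested.

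Over the entire tables, limma called 0 genes and 19 transcripts, and diffSplice 47 genes. Called genes numbered 1 with libraries rescaled to a common sum and 3 with array weights. They numbered 4 with listed transcripts summed and 0 to 3 with a library left out. Transcripts numbered 8 with a mean of at least 5 FPKM, 44 with no intensity trend, and 11 to 32 with a library left out. Usage genes numbered 92 with no minimum, 13 at 5 FPKM and 74 to 110 with a library left out. The replicate block called 0 synaptotagmin genes, 0 of their transcripts, 0 usage shifts among them and 0 transcripts in all. Between libraries of the same number, deviations from the group means had correlations of 0.184, -0.127 and -0.0708. Those between different numbers ran from -0.260 to 0.269. Deviations within a group sum to 0, so these few values cannot show whether pairs exist. The sample titles give only a group and a number, so the numbers were not taken as pairs. Unknown depth limits what low forms such as Syt7-204 can show.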
